A study of Mus musculus with 8 samples.

Results

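HMGA2 peaks that shared at least 1 bp with a peak of the kinase ATM and none with a peak of γ-H2AX were 3512 of the 152834 HMGA2 peaks of wild-type mouse embryonic fibroblasts (percent_called 2.30, 95% Wilson interval 2.22 to 2.37%). They were chosen by the overlap of the authors' 3 wild-type peak lists, so their positions relative to ATM and γ-H2AX peaks are described below without a test. Their partners were 3498 ATM peaks, 2.93% of the 119570 peaks of the ATM list. Of the other HMGA2 peaks, 145248 touched neither list, 3890 shared a γ-H2AX peak and no ATM peak, and 184 shared both. The peaks that touched neither list are the main set for comparison.

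The cells were embryonic fibroblasts of C57BL/6 mice, taken at E15.5, grown for 2 to 4 passages and wild type for Hmga2. Chromatin immunoprecipitation and sequencing was done with antibodies to HMGA2, to ATM and to histone H2AX phosphorylated at its C-terminal serine (γ-H2AX, written H2AXS139ph in the labels), with 1 library per antibody and genotype. The title of the series places γ-H2AX in transcription that depends on HMG proteins. Libraries of Hmga2 knockout cells and of input DNA belong to the series and were not analysed here. No antibody had a replicate, so there was no test: the intervals cover at most counting error, and peaks are not replicates. Without input, places where HMGA2 and ATM both bind cannot be told apart from places that give reads in any library.

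HMGA2 is an architectural chromatin protein of embryonic and mesenchymal cells whose AT-hooks lie in the minor groove of A/T-rich DNA. ATM is a kinase that is recruited to DNA double-strand breaks, where it phosphorylates H2AX. The phosphorylated histone, γ-H2AX, is the common marker of DNA damage and has also been linked to transcription. A place with HMGA2 and ATM peaks and no γ-H2AX peak thus carries the kinase's signal without that of its product in these lists. A peak that is missing from a list fell short of the caller's threshold there, which is not the same as absence of the protein or mark.

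The shared stretch itself could be read at promoters only, and few of the peaks lay there. Of the 3512 peaks, 16 (0.456%, 0.281 to 0.739%) were in a promoter, counting bases just after the start. Among peaks of neither list the share was 0.284% (0.258 to 0.313%). The promoters below are therefore examples and do not show what the other peaks look like. The RefSeq promoter table (GRCm38.p6, the assembly of mm10) held the 250 bases before the start for 15 genes touched by one of the peaks, of which 10 were protein-coding and 13 contained bases shared by the HMGA2 and ATM peaks. Of the 8 protein-coding promoters with 20 or more shared bases, 6 are printed 5′ to 3′ on the gene's strand, with the shared bases in capitals. The table held sequence for all 15, and these 6 are examples chosen by gene type and number of shared bases. The ribosomal protein gene Rps28 and the pheromone receptor gene Vmn1r101 are left out because these genes have near-identical copies elsewhere. Whether such copies affect reads at the promoters themselves was not tested. Rps28 had the least A/T-rich of the 15 promoters, at 43.6% A+T. H2aw, a histone H2A gene, lies on the + strand with its promoter at chr11:58954435-58954684. Tmpo, which encodes the lamina-associated polypeptide that tethers chromatin to the nuclear lamina, lies on the − strand (chr10:91170551-91170800). Rtn1, for a reticulon of the endoplasmic reticulum, lies on the − strand (chr12:72409055-72409304). Gask1b, for a Golgi-associated kinase, lies on the + strand (chr3:79885680-79885929). The starts used for Tmpo and Gask1b lie inside the annotated genes and not at their outer ends. Ocel1, for a protein with an occludin/ELL domain, lies on the + strand (chr8:71371048-71371297). Capn15, for a calpain family member, lies on the − strand (chr17:25965528-25965777).
H2aw: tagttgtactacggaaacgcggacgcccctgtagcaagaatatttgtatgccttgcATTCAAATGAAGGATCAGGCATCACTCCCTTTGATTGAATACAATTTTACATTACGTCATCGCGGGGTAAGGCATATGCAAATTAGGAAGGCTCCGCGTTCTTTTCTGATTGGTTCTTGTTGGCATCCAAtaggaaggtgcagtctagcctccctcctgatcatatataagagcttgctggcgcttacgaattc
Tmpo: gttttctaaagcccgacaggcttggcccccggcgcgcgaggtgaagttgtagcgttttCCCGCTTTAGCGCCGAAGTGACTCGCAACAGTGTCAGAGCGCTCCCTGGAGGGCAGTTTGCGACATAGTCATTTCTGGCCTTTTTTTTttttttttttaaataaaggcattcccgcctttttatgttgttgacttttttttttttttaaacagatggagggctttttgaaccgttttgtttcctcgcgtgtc
Rtn1: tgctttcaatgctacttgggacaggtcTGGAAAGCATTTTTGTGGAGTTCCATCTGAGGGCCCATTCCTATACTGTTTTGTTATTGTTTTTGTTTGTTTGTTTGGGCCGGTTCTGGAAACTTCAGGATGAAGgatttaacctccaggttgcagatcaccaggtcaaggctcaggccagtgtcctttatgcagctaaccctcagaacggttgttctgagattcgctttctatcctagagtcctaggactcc
Gask1b: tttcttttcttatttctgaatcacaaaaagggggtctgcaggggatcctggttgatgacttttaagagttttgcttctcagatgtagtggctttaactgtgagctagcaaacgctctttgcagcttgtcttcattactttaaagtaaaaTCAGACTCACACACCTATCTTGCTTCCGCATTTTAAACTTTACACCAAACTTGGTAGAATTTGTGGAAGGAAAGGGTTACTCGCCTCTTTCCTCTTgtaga
Ocel1: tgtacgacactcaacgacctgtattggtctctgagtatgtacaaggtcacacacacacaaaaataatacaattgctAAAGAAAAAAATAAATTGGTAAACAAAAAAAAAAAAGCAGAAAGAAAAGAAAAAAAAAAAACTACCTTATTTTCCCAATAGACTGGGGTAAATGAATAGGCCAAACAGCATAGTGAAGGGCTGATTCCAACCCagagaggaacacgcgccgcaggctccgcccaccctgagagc
Capn15: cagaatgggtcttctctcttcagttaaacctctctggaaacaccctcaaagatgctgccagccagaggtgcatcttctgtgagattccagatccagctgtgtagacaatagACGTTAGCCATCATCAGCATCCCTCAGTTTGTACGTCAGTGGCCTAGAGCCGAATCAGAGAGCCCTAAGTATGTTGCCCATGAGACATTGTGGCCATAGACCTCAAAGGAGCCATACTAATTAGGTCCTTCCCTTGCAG

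In the H2aw promoter the HMGA2 and ATM peaks shared 130 bases, from 194 to 65 bp before the start, with an HMGA2 score of 20.26 and an ATM score of 24.61. A score is the authors' −10 times the log10 of a peak's p, with 20 at their threshold, and it ranks peaks only within a list. The HMGA2 score of H2aw was therefore close to the threshold, while its ATM score lay above the ATM list's median of 23.58. The shared stretch was 58.5% A+T and held ATGCAAAT, the octamer known from histone gene promoters, which occurred on either strand in 1.60% of the 32851 promoters of the table. That motif was looked for after the sequence had been seen. In the Tmpo promoter, 88 bases were shared (scores 21.98 and 21.09). They ended in a run of T, and the shared stretch was 46.6% A+T and held 6 CG dinucleotides. In the Rtn1 promoter 105 bases were shared, 223 to 119 bp before the start (scores 29.58 and 32.12). Gask1b had 96 shared bases, which ended 6 bp before the start in the promoter table (scores 28.15 and 32.58). Ocel1 had the most A/T-rich of the 6 shared stretches, 133 bases of 69.2% A+T with runs of A, and an HMGA2 score of 42.95 beside an ATM score of 24.20. Ocel1 lies in a 1 Mb window of chromosome 8 where 9 of 62 HMGA2 peaks (14.5%) were of the kind described. That window is 1 of the 6 densest, which were left out in a check given below. Capn15 had a shared stretch of 50.4% A+T that reached the base next to its start (scores 21.68 and 24.34).

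The 15 promoters touched by a shared peak had a median of 60.4% A+T and reached down to 43.6%. The median was 56.2% in the 408 promoters touched by HMGA2 peaks of neither list, 52.4% in the 18 touched by peaks sharing γ-H2AX only, 50.2% in the 540 touched by any ATM peak and 47.6% in all 32851. The medians of the 3 HMGA2 sets were all above that of the table as a whole, and all 15 promoters lay within the range of the 408. Of 4 motifs searched on both strands, AATT was in 11 of the 15 (73.3%), beside 69.9% of the 408 and 47.1% of all promoters. The motif AATATT was in 3 of the 15, beside 13.5% of the 408 and 6.17% of all, and AAATTT in none of the 15, beside 16.7% and 6.97%. Both 6-letter motifs are A/T runs of the kind that AT-hooks bind, and both hold AATT or can overlap it. The dinucleotide CG was in 13 of the 15, beside 92.1% of all promoters. With 15 promoters, these shares describe those promoters and nothing more.

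Within the pairs, the partners overlapped broadly but were not centred on each other. The median shared stretch was 93 bp (quartiles 49 and 134 bp, range 1 to 1203 bp), or 52.7% of the HMGA2 peak. The midpoints lay a median of 80 bp apart, and those of 490 peaks (14.0%) lay within 20 bp of each other. Over the 14 steps of 20 bp from −140 to 140 bp, each step held between 5.10% and 6.98% of the peaks, so the offsets were spread almost evenly over the width of a peak. The partner's midpoint was at the lower coordinate for 1704 peaks and at the higher for 1801. The same start and end were found for 1 pair, and 11 peaks had more than 1 ATM partner. Peaks sharing γ-H2AX only gave nearly the same picture, with a median of 95 bp shared and midpoints 81.5 bp apart.

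**Figure D1:**
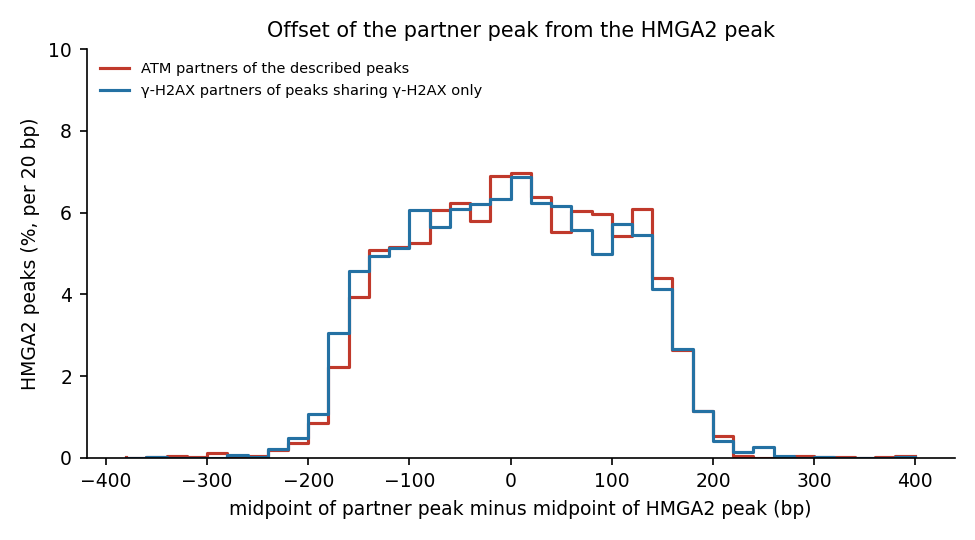
Offset of the partner peak's midpoint from the HMGA2 peak's midpoint in bp (x axis) and percent of HMGA2 peaks in each 20 bp step (y axis), for the ATM partners of the described peaks and for the γ-H2AX partners of peaks sharing γ-H2AX only. Both lines are nearly flat, between 4.94% and 6.98% per step from −140 to 140 bp, and fall off on either side.

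Midpoints lay nearer to each other in the higher score classes, which held few peaks. Where the lower of the 2 scores was under 25 (2981 peaks), 13.4% of the midpoints lay within 20 bp (95% Wilson interval 12.2 to 14.7%). For lower scores of 25 to 30 the share was 15.7% of 453 peaks (12.6 to 19.3%), for 30 to 40 it was 23.6% of 55 (14.4 to 36.3%), and for 40 or more 26.1% of 23 (12.5 to 46.5%). The median distance of midpoints was 81.5, 77.0, 59.5 and 42.0 bp in these classes. Widths bound the distance between midpoints of overlapping intervals, and they were not matched between classes. The median shared stretch was 91, 99, 114 and 83 bp, so it did not lengthen in the highest class. The intervals of neighbouring classes overlap, and the class limits were chosen after the values were seen.

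Near the limit of the rule, 73 of the peaks shared only 1 to 5 bp with ATM, with a median HMGA2 score of 22.93 and a median width of 173 bp. Just outside it, 103 peaks of neither list ended 5 bp or less from an ATM peak, with a median score of 24.11 and a median width of 171 bp. On the other side of the rule, 5 of the 3512 peaks had a γ-H2AX peak within 5 bp and 51 within 100 bp.

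Most of the peaks were weak, like the lists they came from. Their HMGA2 scores had quartiles of 21.53, 23.92 and 27.27, beside 21.53, 23.75 and 26.85 in peaks that touched neither list. Their widths had a median of 171 bp, beside 169 bp. ATM partners had a median score of 23.92, beside 23.58 in the whole ATM list. The 2 scores of a pair were almost unrelated across the 3512 peaks (Spearman's rho 0.03, a description, since peaks share their libraries). Only 78 peaks scored 30 or more in both lists, 23 scored 40 or more and 11 scored 50 or more.

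The sets parted at the top of the range. HMGA2 scores of 50 or more were found in 43 of the peaks (1.22%, 0.910 to 1.65%) and in 755 of the peaks of neither list (0.520%, 0.484 to 0.558%). Read the other way, the described peaks made up 2.25% of HMGA2 peaks scoring 20 to 25 and 5.04% (3.76 to 6.72%) of those scoring 50 or more. They made up 2.04% of HMGA2 peaks under 150 bp wide and 8.74% (6.55 to 11.6%) of those of 400 bp or more, and a wider interval has more room to be touched. The share of peaks with γ-H2AX only was higher in the same classes too, at 4.81% of those scoring 50 or more and 6.91% of the widest. Of the 184 peaks sharing both, 14 scored 50 or more (7.61%, 4.59 to 12.4%). Among the 30 HMGA2 peaks that scored 100 or more, 4 shared ATM only (13.3%, 5.31 to 29.7%) and 0 shared γ-H2AX only (up to 11.4%). Another 4 of the 30 shared both, and 22 touched neither list. The difference between the partners was not tested.

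**Figure D2:**
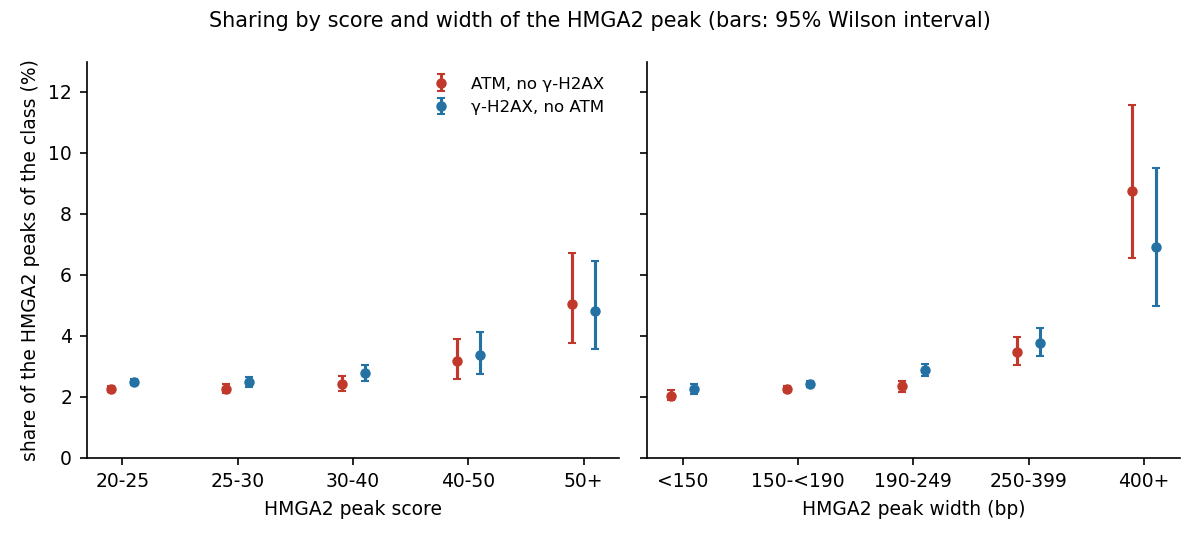
Share of HMGA2 peaks (y axis, percent) that share ATM and no γ-H2AX, or γ-H2AX and no ATM, by class of HMGA2 score (left) and of width in bp (right), with 95% Wilson intervals. Both shares rise to 5.04% and 4.81% at scores of 50 or more and to 8.74% and 6.91% in the widest class.

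The strongest shared place lay on chromosome 10 at chr10:72297066-72297349, between genes, 11.9 kb from the pseudogene Gm9923. It had an HMGA2 score of 171.56 and an ATM score of 240.09, with 173 bp shared and the nearest γ-H2AX peak 27.3 kb away. The next, chr1:123318877-123319004, lay 13.1 kb from Dpp10, which encodes a potassium channel partner protein, with scores of 86.77 and 207.15 and 101 of its 128 bp shared. A peak at chr3:11724424-11724598 scored 69.06 and 197.96 and had a γ-H2AX peak only 0.388 kb away. Most of these strongest places were outside genes: of the 10 with the highest lower score, the 2 inside a gene were in Trim30a and Pbx4. Trim30a, for an interferon-induced TRIM protein, held a peak at chr7:104427997-104428201 with scores of 62.30 and 109.34. Pbx4, for a homeodomain protein, held the peak with the highest HMGA2 score of all 3512, at chr8:69843435-69843612, with scores of 225.52 and 52.19 and a γ-H2AX peak 2.28 kb away. Of the 10, 3 lay on chromosome Y.

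The share of HMGA2 peaks was similar on most chromosomes, and chromosome Y stood apart. On the autosomes it ran from 1.91% (chromosome 6, 1.64 to 2.22%) to 2.62% (chromosome 18, 2.22 to 3.08%), and on chromosome X 2.04% (202 peaks). On chromosome Y the peaks were 13 of 120 HMGA2 peaks, or 10.8% (6.44 to 17.7%), while 1 of the 120 shared γ-H2AX only. The 13 were narrow, with a median width of 112 bp (67 to 186 bp) beside 169.5 bp in the chromosome's peaks of neither list. Their HMGA2 scores ran from 20.71 to 103.03 with a median of 28.02, and their ATM scores from 20.38 to 84.57 with a median of 39.99. None lay in a gene. Much of the mouse Y chromosome is made of long repeated arrays, and how reads with several matches were treated is not given in the sources used here, so these 13 peaks are uncertain.

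**Figure D3:**
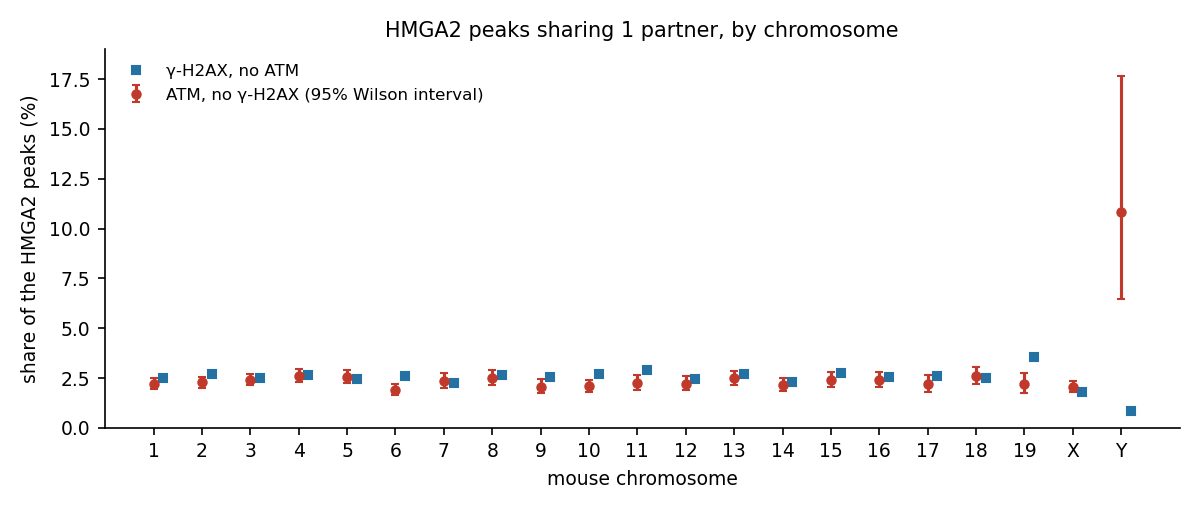
Share of HMGA2 peaks (y axis, percent) on each mouse chromosome (x axis) that share ATM and no γ-H2AX, with 95% Wilson intervals, and that share γ-H2AX and no ATM, as squares. The autosomes and X lie between 1.91% and 2.62% for ATM, and Y is at 10.8% with a wide interval from 120 peaks.

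A few regions, many of them with tandem gene families, held a small part of the peaks close together. These regions were picked after their values had been seen and carry no test. Of 2637 windows of 1 Mb with an HMGA2 peak, 842 held none of the peaks, 835 held 1 and 63 held 5 or more, with at most 17. The densest stretch was a cluster of KRAB zinc-finger genes on chromosome 4 (146 to 148 Mb as drawn on the assembly), with 28 of 189 HMGA2 peaks (14.8%, 10.5 to 20.6%), beside 12 that shared γ-H2AX only and 5 that shared both. The 28 were wide, with a median of 357 bp beside 239.5 bp in the cluster's peaks of neither list. Windows with the Speer genes of chromosome 5, a family of spermatogenesis-associated proteins, held 22 of 171 (12.9%), and the window with the Sp100 genes of chromosome 1, for nuclear body proteins, held 9 of 39 (23.1%). The window with the defensin genes of chromosome 8 held 8 of 48 (16.7%). Other windows held as many in number, such as that with Cd180 and Mast4 on chromosome 13 (8 of 69). That with Col3a1 and Col5a2 on chromosome 1 held 8 of 156. The longest shared stretch of all, 1203 bp, was in the Sp100 window at chr1:85341881-85343270, within Gm7592 and the pseudogene Gm7281, with scores of 27.22 and 54.92. Members of such families are near-identical, so which copy the reads came from is uncertain.

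Most of the peaks stood alone. The median distance from one to the next nearest was 208 kb, and 228 (6.49%) had another within 10 kb. Peaks of all 3 lists were a little denser around them than around peaks of neither list at every distance from 0.5 to 100 kb, except HMGA2 peaks at 1 to 2 kb (80.4 beside 80.5 per Mb). The rule chose the described peaks for touching ATM and the comparison peaks for touching neither ATM nor γ-H2AX. Where peak density varies along the genome, that choice alone can give such differences in ATM and γ-H2AX peaks nearby. How much it gave was not tested. The Poisson intervals below treat each neighbour as an independent count and are too narrow, because 1 neighbour can be counted around several HMGA2 peaks. At 50 to 100 kb, 750093 γ-H2AX peaks were counted around peaks of neither list, from a list of 124947. For HMGA2 at 10 to 20 kb there were 78.3 per Mb (95% Poisson interval 76.2 to 80.4) beside 73.6 (73.3 to 73.9). Between 1 and 2 kb away there were 59.2 ATM peaks per Mb (53.7 to 65.2) beside 50.9 (50.1 to 51.7), and at 50 to 100 kb 51.8 (51.0 to 52.5) beside 49.1 (49.0 to 49.2). For γ-H2AX the values at 50 to 100 kb were 54.5 (53.7 to 55.2) beside 51.6 (51.5 to 51.8). Around peaks sharing γ-H2AX only, ATM peaks were about as dense, at 58.4 and 51.7 per Mb for the same distances, and γ-H2AX peaks were denser, at 58.9 per Mb (58.1 to 59.6) at 50 to 100 kb. The rule kept γ-H2AX out of the peak itself but not out of the surroundings: 454 peaks (12.9%, 11.9 to 14.1%) had a γ-H2AX peak within 1 kb, beside 11.4% (11.2 to 11.6%) of peaks of neither list. The median distance to the nearest γ-H2AX peak was 6.09 kb, beside 6.68 kb.

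**Figure D4:**
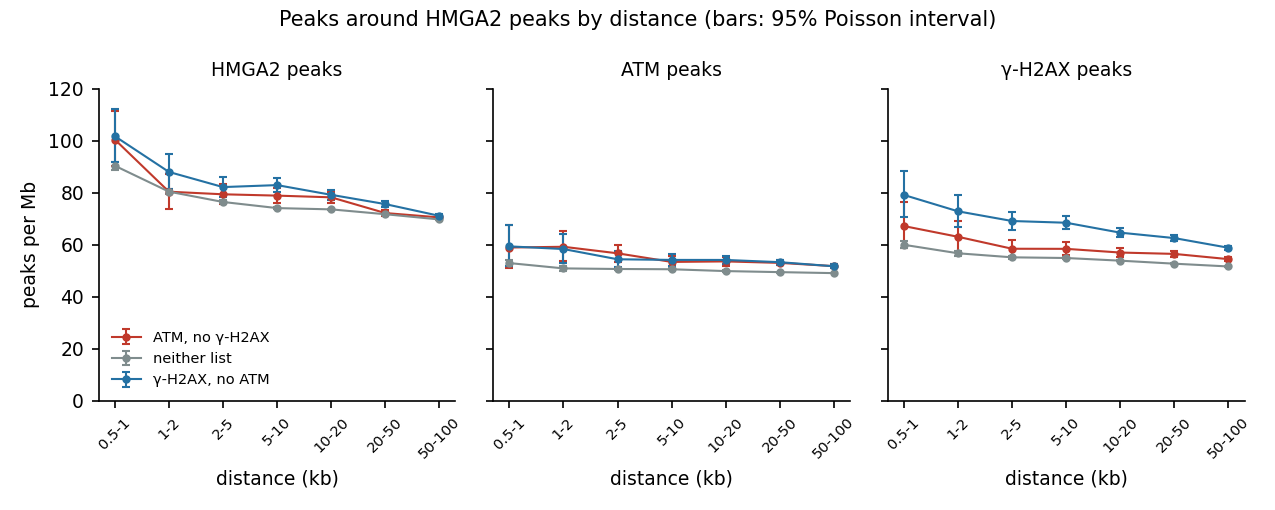
HMGA2, ATM and γ-H2AX peaks per Mb (y axis) by distance in kb (x axis) from HMGA2 peaks that share ATM only, share γ-H2AX only or touch neither list, with 95% Poisson intervals. These treat each neighbour as an independent count and are too narrow. Around peaks sharing ATM only, ATM peaks run from 58.9 per Mb at 0.5 to 1 kb to 51.8 at 50 to 100 kb, above the grey line of neither list throughout. The sets were chosen by whether they touch ATM and γ-H2AX peaks, which can by itself give such a difference.

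The peaks lay within genes about as often as HMGA2 peaks of neither list, and somewhat more often near start sites and in pseudogenes. Within genes lay 1673 (47.6%, 46.0 to 49.3%), beside 47.7% (47.5 to 48.0%) of the peaks of neither list, and the ratio of the 2 shares was 0.998 (0.964 to 1.03). Peaks sharing γ-H2AX only were in genes more often, at 55.1% (53.5 to 56.6%). Within 1 kb of an end of a gene lay 223 (6.35%, 5.59 to 7.20%), beside 5.44% (5.32 to 5.55%), a ratio of 1.17 (1.03 to 1.33). The share was not particular to these places. It was 7.30% (6.52 to 8.16%) for peaks sharing γ-H2AX only. It was 6.26% for the ATM partners of the described peaks and also 6.26% for all other ATM peaks. Without chromosome Y and the 1 Mb windows with 9 or more of the peaks, a choice made after the values were seen, the ratio of 1.17 became 1.11 and its interval reached below 1 (0.972 to 1.27). Within 1 kb of a start site lay 86 (2.45%, 1.99 to 3.01%), beside 1.73% (1.66 to 1.80%) and 3.26% for γ-H2AX only. Pseudogenes held 51 (1.45%, 1.11 to 1.90%), beside 0.982% (0.932 to 1.03%). Deserts over 100 kb from every gene held 294 (8.37%, 7.50 to 9.33%), beside 9.88% (9.73 to 10.0%). No microRNA gene was touched (0 of 3512, with an upper Wilson limit of 0.109%).

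**Figure D5:**
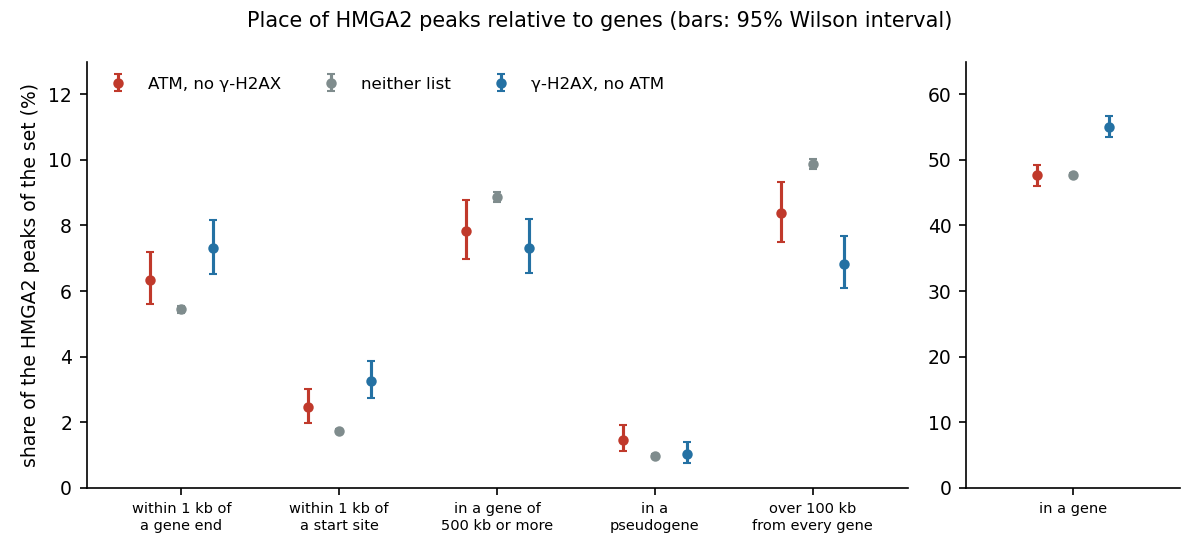
Share of HMGA2 peaks (y axis, percent) at 5 kinds of place (left) and within any gene (right, with its own scale), for peaks sharing ATM only, touching neither list or sharing γ-H2AX only, with 95% Wilson intervals. The ATM-only peaks lie with those of neither list for genes as a whole (47.6% and 47.7%), while γ-H2AX-only peaks reach 55.1%.

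The authors' list of ATM promoter regions gave another view of start sites. Of its 866 regions, 788 were ATM peaks, which is 0.659% of the ATM list, and 28 of the 3512 peaks (0.797%, 0.552 to 1.15%) had such a partner. The 10 strongest of these, by the lower score, lay at Cop1, Gask1b, Nod1, Efl1, Cstf3, A530040E14Rik, Iws1, Ocel1, Nop58 and Mrpl46. Cop1, a ubiquitin ligase that marks transcription factors for destruction, had scores of 37.97 and 28.45 at chr1:159231682-159231941, with 24 bp shared. Nod1, a sensor of bacterial cell wall fragments, had 28.07 and 27.86 at chr6:54972978-54973105. Cstf3, for a subunit of the factor that cleaves pre-mRNA 3′ ends, had 29.58 and 24.51. Nop58, a core protein of small nucleolar RNA particles, had 28.95 and 24.12 with 164 of 170 bp shared, and a γ-H2AX peak lay only 0.153 kb away.

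Of 21887 protein-coding genes, 122 had one of the peaks within 1 kb of an end (percent_called 0.557). An HMGA2 peak of neither list was at the ends of 3682 (percent_called 16.8). These gene shares cannot be compared directly, because they come from 3512 and 145248 peaks. Per peak, 3.22% (2.68 to 3.85%) of the described peaks lay within 1 kb of a protein-coding gene's end, beside 2.67% (2.59 to 2.76%). Among the 122 genes, Macc1, for a regulator of growth factor receptor expression, had the highest lower score, with 47.28 and 32.37 at chr12:119389845-119390158, but only 20 bp were shared. Acadsb, for a mitochondrial acyl-CoA dehydrogenase, had 33.29 and 29.81 inside its far end with 112 bp shared. One peak at chr14:59440111-59440359 (29.33 and 28.91) lay inside Setdb2, for a histone H3 lysine methyltransferase, and inside Gm45935, and within 1 kb of the start of Cab39l. One peak at chr5:122363812-122364001 (33.68 and 25.91, 147 bp shared) was counted for both Vps29, a retromer subunit, and Fam216a. Washc3, for a subunit of the WASH actin-regulating complex, had 26.46 and 26.85 just past its end. Zfp993, Zfp992 and Vmn2r114, also among the 15 highest, belong to tandem families and are uncertain for the reason given above.

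In gene bodies the peaks followed gene length. One or more lay in 1156 protein-coding genes (percent_called 5.28), 968 with 1, 141 with 2 and 47 with 3 or more, and the genes had a median length of 113 kb beside 17.2 kb for all protein-coding genes. As a share of the HMGA2 peaks in genes of a length class, they were 2.21% under 20 kb, 2.47% from 20 to 100 kb, 2.25% from 100 to 500 kb and 2.03% (1.80 to 2.29%) from 500 kb up, so longer genes held more of them in number and not in share. Zfp993 held the most, 7 of its 45 HMGA2 peaks. Pard3b, for a cell polarity protein, held 5 of 100. Dlg2 held 5 of 148, Cntnap2 5 of 138 and Ptprd 5 of 212, all for proteins of neuronal contacts, and Macrod2 held 5 of 173. Tcf4, a basic helix-loop-helix transcription factor gene, held 4 of 39 (10.3%), and Ctnna1, for the α-catenin that links cadherins to actin, held 3 of 18 (16.7%). Among protein-coding genes with 3 or more, Zfp981 had the most per Mb, with 4 of its 10 HMGA2 peaks in 37.4 kb, followed by Zfp991, Gm7827, Ctnna1 and Zfp978. As annotated, Zfp981 overlaps Zfp993 and Zfp991 lies within Zfp978, so a peak can be counted for both genes. These Zfp genes belong to the chromosome 4 cluster and are uncertain for the reason given above.

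Gene lists were read against those background shares, 5.28% of protein-coding genes with a peak in the body and 2.30% of HMGA2 peaks. Neuronal adhesion and synapse genes had a peak in the body in 16 of 24 genes, and these genes are long (median 1241 kb): of their 2268 HMGA2 peaks, 40 (1.76%) were of the kind described, no more than among all HMGA2 peaks. Grm7, a glutamate receptor gene, had scores of 29.58 and 54.68 in its strongest of 3, and Nrxn3, a neurexin gene, 29.27 and 50.70. TGF-β and BMP signalling genes had one in 4 of 22 (5 of 118 HMGA2 peaks, 4.24%), a share that rests on 5 peaks. The list's median gene length was 65.4 kb, beside 17.2 kb for all protein-coding genes. Among the 4 genes, Ltbp1, for a protein that holds latent TGF-β in the matrix, had 48.30 and 28.28 in its stronger of 2. The receptor genes Tgfbr1, Tgfbr3 and Acvr1 had 1 each. Insulin, IGF and mTOR genes (median length 78.8 kb) had one in 4 of 21 (5 of 150, 3.33%, also resting on 5 peaks). Among them, the receptor gene Igf1r had 2 (21.68 and 27.05 in the stronger), Rptor, for a scaffold protein of the mTOR complex, had 26.85 and 28.92, and Igf2bp2, an RNA-binding protein gene known as an HMGA2 target, had 23.25 and 21.24.

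Nuclear architecture and AT-rich DNA-binding protein genes had one in 4 of 18, with 6 of their 72 HMGA2 peaks (8.33%, beside 2.30% of all HMGA2 peaks), a share that rests on 6 peaks. Matr3, for the nuclear matrix protein matrin, had 2 (37.44 and 28.50 in the stronger), and Tmpo had 2. One was at the promoter printed above, which lies inside the annotated gene. A stronger one lay near the gene's far end at chr10:91148058-91148266 (35.88 and 23.07). Smarca4, for the ATPase of the BAF chromatin remodelling complex, had 33.67 and 38.19. Hmga2 itself had 1, at chr10:120463395-120463568, with scores of 20.24 and 26.65, the HMGA2 score being close to the threshold. Of 24 DNA damage response genes 1 had one, Atm (25.05 and 21.98), which was 4.17% of the list, and of 16 p53 target genes 1 had one, Mdm2 (23.66 and 20.52), or 6.25%. Both shares were near the 5.28% of all protein-coding genes.

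Marker lists of the fibroblast and of other cells held 0 to 2 genes with a peak in the body, beside 5.28% of all protein-coding genes. Fibroblast and matrix genes had one in 2 of 20, the collagen gene Col5a2 (30.26 and 24.42 in the stronger of 2) and the receptor gene Pdgfrb (24.12 and 27.91). Cell cycle genes had one in 2 of 23 (E2f3 and Cdk6), endothelial genes in 2 of 13 (Emcn and Tek, with 3 of the list's 35 HMGA2 peaks, 8.57%), and neuronal genes in 1 of 16, Map2 (23.22 and 53.99). Wnt signalling, immediate early, blood cell, epithelial, Hox and clustered protocadherin genes had none in a body or at an end. Their bodies held only 4 to 45 HMGA2 peaks per list, too few to tell none from the 2.30% of all HMGA2 peaks. Housekeeping genes had none in a body and 1 of 20 at an end, the translation factor gene Eif4a2 (32.73 and 24.92). Olfactory receptor genes had one at an end in 5 of 1106 (0.452%) and vomeronasal receptor genes in 4 of 353 (1.13%), beside the 0.557% of all protein-coding genes, and both families hold near-identical copies. Peaks show where protein was found and not which cells express a gene, so these lists say nothing about which cells were in the cultures.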

How the data were processed

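The files used were peak lists of 3 wild-type libraries. Per the labels, the authors called peaks with MACS14 without its model, shifting tags by 30 bp and keeping peaks at p 0.01. Per the submitters' processing notes, the tools were Trimmomatic, Bowtie2, SAMtools, MACS and HOMER, on mm10. The control library and the depth are not given in the sources used here. The score deposited with each peak is the authors' −10 log10 of p, with 20 at the threshold. The authors' 866 ATM promoter regions (unit other: start and end only) begin 1 bp later than the same ATM peaks, so 1 was taken from each start, and how these regions were chosen is not stated. The deposited histogram averages all HMGA2 peaks and was not used.

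Intervals were overlapped by at least 1 bp in Python 3.11.15 with pandas 2.3.3, and the count of 3512 was checked with bedtools 2.31.1 and the code on simulated lists. Genes (49943, of which 21887 were protein-coding) came from RefSeq on GRCm38.p6. That table gives no strand, so both ends of a gene were used, and start sites came from the promoter table (250 bases before to 50 after a start, 27025 genes). Exons and introns were not annotated. No genome was given, so sequence was read from promoters only and not from the peaks. Intervals are 95% Wilson for shares and exact Poisson for densities. The Poisson intervals do not allow for neighbours that are counted around several peaks.

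Peaks and genes named are the 10 peaks with the highest lower score of the pair, the 5 highest by either score and by shared stretch, the 15 protein-coding genes with the highest lower score at an end, the 10 genes with the most peaks in the body, the 5 with the most per Mb among protein-coding genes with 3 or more, the 10 strongest at ATM promoter regions, and up to 4 genes per list. The text gives a selection of these, and 1 gene is not reported here. The set of peaks and the 20 gene lists were chosen with earlier results of these data known. Alternatives changed the overlap, the score, the interval width, the distance to γ-H2AX, the chromosomes and the gene-end window.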

Additional observations from a re-analysis of the deposited data

How the results depend on the processing

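The number of peaks depended on the settings, and their place in genes did so less. Against 2.30% of HMGA2 peaks, the share was 1.37% with at least 50% of the shorter interval overlapping, 0.981% and 0.480% with scores of at least 25 and 30 in all 3 lists, 5.44% with intervals of 500 bp and 2.00% with no γ-H2AX peak within 1 kb. Protein-coding genes with a peak at an end, 122 above, were 79, 22, 1 and 283 under the first 4 of these, 67 with HMGA2 peaks of 150 to 190 bp, and 63 or 478 with windows of 500 bp or 5 kb at gene ends. By construction, these settings keep fewer or admit more peaks. At a score of 30 the filter also drops γ-H2AX peaks, so 85 peaks qualify there. The gene-body ratio was 0.911 at a score of 30 (0.715 to 1.16) and between 0.987 and 1.02 under the other 8 alternatives. The gene-end ratio of 1.17 stayed above 1 under all 11 alternatives (1.04 to 1.31). Its interval reached below 1 with scores of at least 25 (0.967 to 1.76) and 30 (0.449 to 2.47), with intervals of 500 bp (0.951 to 1.13), with no γ-H2AX within 1 kb (0.994 to 1.32), and without chromosome Y and the 6 densest windows (0.972 to 1.27). That last alternative was chosen after seeing the data and left out 81 of the peaks. No paired analysis was possible because each antibody and genotype had 1 library, and for the same reason no replicate could be left out. Most peaks lie near the threshold, and a peak missing from one list may have fallen just short there. The effect of depth was not tested.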
